A study of Mus musculus with 4 samples.

Results

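The miRNAs described here are the mature products of the hairpins of miR-21a, miR-22, miR-146a, miR-146b and miR-155, a set linked to inflammation, in exosome-enriched preparations released by astrocytes. They were chosen by name and not by a cut on value, although earlier results of these data were known. Every arm of these 5 hairpins that was listed was taken, which gave 6 of the 389 mature miRNAs in the table. RefSeq holds 10 mature arms for the 5 hairpins, and miR-21a-3p, miR-146a-3p, miR-146b-3p and miR-155-3p have no row in the table analysed here. Among the 6 listed members, miR-146a-5p was at 0 in 1 library, and the other 5 were above 0 in every library.

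C8-D1A is an established mouse astrocyte line, labelled as wild type (WT), and small RNA was sequenced from vesicles collected from its culture supernatant. The comparison asks whether the miRNA content of these preparations differs after heat stress, with 2 libraries in the control group and 2 in the heat stress group, described as biological replicates. The heat stress group was kept at 42 °C for 2 h and rewarmed at 37 °C for 6 h, whereas the control group stayed at 37 °C, for 8 h according to the sample labels and for 2 h according to the culture methods. A single cell line was used, so the libraries say nothing of other astrocytes, and the cells were grown with fetal bovine serum. No miRNA that defines astrocytes was set as a marker, and astrocyte mRNA markers are not measured in a miRNA table, so the labelled cell type could not be checked here.

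A mature miRNA guides the silencing complex to messenger RNAs that pair with its seed, the bases near its 5′ end, and lowers their translation or stability. In glia and macrophages, miR-155 and miR-146a are switched on by NF-κB signalling. MiR-155 and the miR-146 family act in opposite directions, since miR-155 represses brakes on cytokine signalling such as Socs1 while miR-146 represses the signal adaptors Irak1 and Traf6. MiR-21 is induced in many stressed and growing cells and represses Pdcd4, and miR-22 is a widely expressed miRNA that has been linked to stress responses.

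Each deposited value is a normalized read count, and within a library every value was a whole multiple of 1 step. If a step is worth 1 read, control libraries 1 and 2 held 43675 and 95020 miRNA reads, and heat stress libraries 1 and 2 held 100933 and 63338. A value of 0 allows up to 3 reads, a limit of 4.06 and 2.35 for the control libraries and of 2.37 and 3.00 for the heat stress libraries. Intervals and limits of this kind cover counting error only, because PCR reads without molecular identifiers are not independent molecules. The values are relative to the rest of each library, so a change in vesicle number that moves all miRNAs alike does not show in them. Fewer vesicles of a given kind, fewer cells releasing them and less of a miRNA per vesicle cannot be told apart. The 2 libraries of a group differed by far more than counting error, with a chi-square per degree of freedom of 51.3 in the control group and 33.7 in the heat stress group.

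The mature sequences are shown because the seed groups the members by the targets they can share. They were matched by name to RefSeq (GRCm38.p6), which gave a sequence for all 6 members and for 325 of the 389 miRNAs in the table. They are written 5′ to 3′ with the seed, bases 2 to 8, in capitals.
miR-21a-5p: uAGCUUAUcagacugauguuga
miR-146a-5p: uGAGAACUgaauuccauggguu
miR-146b-5p: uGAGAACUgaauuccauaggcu
miR-155-5p: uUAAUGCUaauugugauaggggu
miR-22-3p: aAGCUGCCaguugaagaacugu
miR-22-5p: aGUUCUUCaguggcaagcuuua
MiR-146a-5p and miR-146b-5p share the seed GAGAACU, and each of the other members has a seed that no other member has. Counted from 1 at the 5′ end, with miR-146a-5p as the first sequence, the pair differs by G18A and U21C, which are 2 of 22 positions. Reads of this pair could be split between both names by the counting, so their sum is also given. MiR-21c, a related miRNA outside the 5 hairpins, has the seed of miR-21a-5p and was listed at 0.782 in control library 2, which is 1 read, and at 0 in the other libraries.

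Of the 6 members, 0 were called by limma on log2(value + 1), a call being a change above 2-fold whose unadjusted p was under 0.05. Log2 changes, log2 gaps, log2 differences and log2 ratios have 1 added to each value, apart from those of edgeR or with another constant named. Ratios not given as log2 have no constant added. Adding 1 brought the members' log2 changes closer to 0 than adding 0.1 did, except for miR-22-3p, at 0.01207 with 1 and 0.01198 with 0.1. The test covered the 313 miRNAs whose mean value was 1 or more, and called 14 higher and 9 lower after heat stress, which is 7.35%. Once limma's p was adjusted by Benjamini-Hochberg over these 313, it was under 0.05 for 0 miRNAs (0.0%), and unadjusted it was under 0.05 for 23. Without heat stress library 1 the adjusted p was under 0.05 for 35 miRNAs and without heat stress library 2 also for 35, none of them a member, whereas without either control library it was so for 0. EdgeR's quasi-likelihood test on the whole multiples, added after the data had been seen, called 0 members and gave 1 miRNA of the 313 an adjusted p under 0.05. That miRNA, chosen here after its values were seen, was miR-139-3p, at 477 and 138 in the control libraries, against 41.1 and 49.0 in the heat stress libraries (log2 change -2.77, adjusted p = 0.0137 in edgeR). Limma did not call it, with a log2 change of -2.49, an unadjusted p of 0.0568 and an adjusted p of 0.686. The median log2 change was 0.18 over the members, 4 positive and 2 negative, and 0.12 over all miRNAs tested, 165 positive and 148 negative. Scaling by library totals moved the median of all miRNAs to 0.02 and that of the members to 0.08, 3 positive and 3 negative. The members' median was -0.20 without control library 1 and -0.01 without heat stress library 2. All 6 members passed the filter on low values, and the groups did not overlap for 1 of them, miR-22-5p, whereas they did not overlap for 27.5% of all miRNAs tested.

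**Figure D1:**
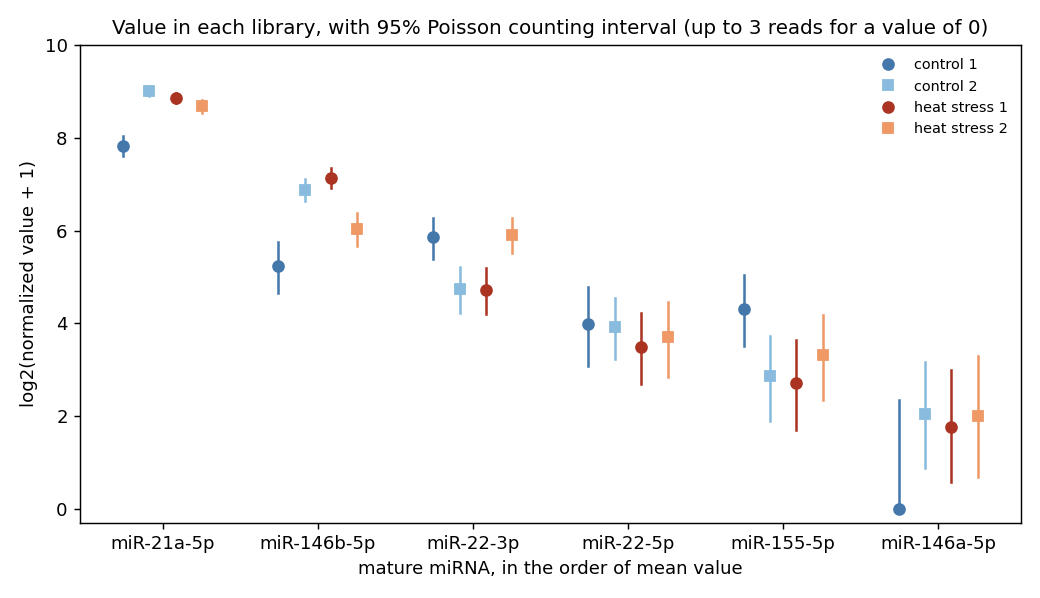
Normalized value of each member in each library, as log2(value + 1), with bars giving the 95% Poisson interval of the reads behind it, or the limit of 3 reads for a value of 0. MiR-21a-5p lies highest in every library, from 228 to 517, and miR-146a-5p lies lowest, from 0 to 3.13.

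MiR-21a-5p, which represses Pdcd4, was the most abundant member. Its values were 228 and 517 in control libraries 1 and 2, against 465 and 412 in heat stress libraries 1 and 2, from 168, 661, 589 and 412 reads. Control library 1 was the low one, control library 2 was the highest of all, and both heat stress libraries lay between them, so the groups overlapped. The 95% Poisson interval of control library 1, 194 to 265, did not reach that of any other library, the nearest being 374 to 454 in heat stress library 2. The mean was 372 ± 205 (SD, n = 2) in the control group, against 439 ± 37.5 (SD, n = 2) in the heat stress group, a ratio of 1.18. The log2 change was 0.35 with a standard error of 0.912 and a 95% interval from -2.00 to 2.70 (limma, adjusted p = 0.971 with Benjamini-Hochberg), so neither a 2-fold increase nor a 2-fold decrease lies outside it. The gap between the control libraries, 1.18 on the log2(value + 1) scale, was larger than the change itself. The direction rested on control library 1, because without it the log2 change was -0.24, and without control library 2 it was 0.94.

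By rank, miR-21a-5p stood at 39 and 27 among the miRNAs of the control libraries, against 27 and 30 in the heat stress libraries. It took 0.385% and 0.696% of the summed value of the control libraries and 0.584% and 0.650% of the heat stress libraries. By mean value over the 4 libraries it stood at rank 31, between miR-30d-5p at 445 and miR-3473b at 325. Its hairpin lies at chr11:86584067-86584158 on the minus strand (GRCm38, GENCODE M21), within an exon of Vmp1, the gene of a vacuole membrane protein. The miRNAs with the most similar profile were let-7i-5p, miR-148b-3p and miR-182-5p, with root-mean-square differences of 0.120, 0.125 and 0.127 between centred log2 profiles over 4 libraries, out of 159 candidates. Let-7i-5p was at 362 and 785 in the control libraries, against 592 and 613 in the heat stress libraries. As with miR-21a-5p, control library 1 was the lowest and control library 2 the highest.

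The miR-146 family, whose targets Irak1 and Traf6 carry Toll-like receptor and interleukin receptor signals, was present almost entirely as miR-146b-5p. MiR-146b-5p was at 36.6 and 117 in control libraries 1 and 2, against 139.9 and 65.1 in heat stress libraries 1 and 2, from 27, 150, 177 and 65 reads. Each group held 1 low and 1 high library, and the groups overlapped. The high libraries of both groups were those with the most reads. The part of depth in these values was not tested. The mean was 77.0 ± 57.1 (SD, n = 2) in the control group, against 102 ± 52.9 (SD, n = 2) in the heat stress group, a ratio of 1.33. The log2 change was 0.53 with a standard error of 1.04 and a 95% interval from -2.16 to 3.22 (limma, adjusted p = 0.960 with Benjamini-Hochberg). Between replicates the gap in log2(value + 1) was 1.66 in the control group and 1.09 in the heat stress group, both above the change. Without control library 1 the log2 change was -0.29, without heat stress library 1 it was -0.01, and without control library 2 it was 1.36.

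MiR-146a-5p was at 0 and 3.13 in the control libraries, against 2.37 and 3.00 in the heat stress libraries, which is 0, 4, 3 and 3 reads. The 0 in control library 1 allows a value of up to 4.06, which is above all the other values, so no difference between groups was detectable at this depth. Because of this 0 the fitted change depends on the constant added to each value. The log2 change was 0.85 with a 95% interval from -1.87 to 3.58 (limma, adjusted p = 0.811 with Benjamini-Hochberg), and 2.28 with 0.1 added in place of 1. Without control library 2 it was 1.88 (limma, unadjusted p = 0.0290) and past the threshold, a comparison of 0 reads with 3 and 3, and without control library 1 it was -0.17. Over the alternatives that left out a library, the adjusted p of miR-146a-5p ran from 0.349 to 0.893.

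Of the reads of both miR-146 names, miR-146b-5p made up 100% in control library 1 (exact Clopper-Pearson 95% interval 87.2% to 100%) and 97.4% in control library 2 (93.5% to 99.3%). The share was 98.3% (95.2% to 99.7%) in heat stress library 1 and 95.6% (87.6% to 99.1%) in heat stress library 2. All of these intervals overlapped, and miR-146b-5p outnumbered miR-146a-5p in every library. A log2 ratio of the pair has no measured value in control library 1, where miR-146a-5p had 0 reads, so its mean over the control group would be set by the constant added and is not given. In the libraries with reads of both, log2 of miR-146a-5p over miR-146b-5p, each value plus 1, was -4.84 in control library 2, -5.39 in heat stress library 1 and -4.05 in heat stress library 2, with control library 2 between the others. The sum of both was 36.6 and 120.5 in the control libraries, against 142 and 68.1 in the heat stress libraries, close to miR-146b-5p alone. The miR-146a hairpin lies at chr11:43374397-43374461 on the minus strand with no other annotated gene over it, and the miR-146b hairpin at chr19:46342762-46342870 on the plus strand in an intron of Mfsd13a. Closest in profile to miR-146b-5p were let-7c-5p, with a root-mean-square difference of 0.149, and miR-199a-3p and miR-199b-3p, which have identical values in the table.

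MiR-155-5p, which represses Socs1 and Inpp5d in activated immune cells, was among the low members. It was at 19.0 and 6.26 in control libraries 1 and 2, against 5.53 and 9.01 in heat stress libraries 1 and 2, from 14, 8, 7 and 9 reads. Control library 1 was the high one, heat stress library 2 lay between the control libraries and heat stress library 1 lay just below both, so the groups overlapped. The 95% Poisson intervals, 10.4 to 31.8, 2.70 to 12.3, 2.22 to 11.4 and 4.12 to 17.1 in that order of libraries, all overlapped one another. The mean was 12.6 ± 8.99 (SD, n = 2) in the control group, against 7.27 ± 2.46 (SD, n = 2) in the heat stress group. The log2 change was -0.57 with a standard error of 0.971 and a 95% interval from -3.08 to 1.93 (limma, adjusted p = 0.926 with Benjamini-Hochberg). The gap between the control libraries, 1.46 on the log2(value + 1) scale, exceeded it. Without control library 1 the log2 change was 0.16, and without control library 2 it was -1.30. The hairpin lies at chr16:84714140-84714204 on the plus strand in an exon of Mir155hg, the noncoding transcript from which miR-155 is processed.

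Only the miR-22 hairpin had both arms listed, and its sequence (RefSeq, GRCm38.p6, chr11:75463716-75463810, plus strand) is shown with the 5p and 3p arms in capitals to place them in the precursor.
Mir22 hairpin: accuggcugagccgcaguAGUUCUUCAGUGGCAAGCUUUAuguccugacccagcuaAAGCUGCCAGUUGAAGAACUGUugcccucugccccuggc
The annotation places it in an exon of Mir22hg, its noncoding host transcript, and in an exon of a Tlcd2 transcript. MiR-22-3p, the arm usually studied, was at 56.9 and 25.8 in control libraries 1 and 2, against 25.3 and 59.1 in heat stress libraries 1 and 2, from 42, 33, 32 and 59 reads. Each group held 1 high and 1 low library at almost the same levels, so the groups overlapped. The 95% Poisson intervals of the high libraries, 41.0 to 76.9 and 45.0 to 76.2, did not reach those of the low ones, 17.8 to 36.3 and 17.3 to 35.7. The mean was 41.4 ± 21.98 (SD, n = 2) in the control group, against 42.2 ± 23.9 (SD, n = 2) in the heat stress group. The log2 change was 0.01 with a 95% interval from -2.51 to 2.54 (limma, adjusted p = 0.997 with Benjamini-Hochberg), which does not show that the groups were alike. With library totals as the scaling it was -0.09. Without control library 2 it was -0.54 and without heat stress library 2 it was -0.58, so its direction was not resolved.

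The high libraries for miR-22-3p were those with fewer reads, control library 1 and heat stress library 2. MiR-122-5p, the liver miRNA and the 1 marker set for liver, was also high in these libraries, at 90.8 in control library 1 and 76.1 in heat stress library 2, against 33.6 in control library 2 and 20.6 in heat stress library 1. Of the other markers of other cells above 0 in every library, miR-129-5p was also highest in these libraries. MiR-128-3p, miR-142a-5p, miR-451a, miR-206-3p and miR-486a-5p, with the identical values of miR-486b-5p, were not. The part of depth or of RNA from another source in the values of miR-22-3p was not tested. Closest in profile to miR-22-3p were miR-378d, miR-29a-3p and miR-99b-5p, with root-mean-square differences of 0.189, 0.269 and 0.276. MiR-378d was at 96.2 and 62.6 in the control libraries, against 46.6 and 122 in the heat stress libraries, and its 2 highest libraries were the same as those of miR-22-3p.

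MiR-22-5p was at 14.9 and 14.1 in the control libraries, against 10.3 and 12.0 in the heat stress libraries, from 11, 18, 13 and 12 reads. Both heat stress libraries lay below both control libraries, but the 95% Poisson intervals overlapped in all 4, the highest lower bound being 8.35 and the lowest upper bound 17.6. The mean was 14.5 ± 0.579 (SD, n = 2) in the control group, against 11.1 ± 1.23 (SD, n = 2) in the heat stress group, a ratio of 0.769. The log2 change was -0.35 with a standard error of 0.832 and a 95% interval from -2.50 to 1.79 (limma, adjusted p = 0.971 with Benjamini-Hochberg). Negative in sign, it lay between -0.46 and -0.25 with each library left out in turn. Since the groups did not overlap, leaving out a library could not change this sign. Closest in profile were miR-484, miR-423-3p and miR-3470b, with root-mean-square differences of 0.140, 0.142 and 0.162.

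The 3p arm outnumbered the 5p arm of miR-22 in every library, by ratios of 3.82 and 1.83 in the control libraries, against 2.46 and 4.92 in the heat stress libraries. As a share of the reads of both arms, miR-22-3p was 79.3% in control library 1 (exact Clopper-Pearson 95% interval 65.9% to 89.2%) and 64.7% in control library 2 (50.1% to 77.6%). In heat stress library 1 it was 71.1% (55.7% to 83.6%) and in heat stress library 2 it was 83.1% (72.3% to 91.0%). With 1 added to each value, the log2 ratio of the arms was 1.35 ± 0.731 in the control group and 1.71 ± 0.697 in the heat stress group, a difference of 0.37 that was smaller than either SD (two-sided exact permutation p = 0.667, n = 2 per group). With 2 libraries against 2 this test cannot give a p below 0.333. The direction was not resolved, since the difference was 0.88 without control library 1 and 0.86 without heat stress library 1, but -0.15 without control library 2 and -0.13 without heat stress library 2. Among the 14 hairpins with both arms above 0 in every library, the range of this ratio over the libraries was 1.38 for miR-22, the rank 7 counted from the smallest range.

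**Figure D2:**
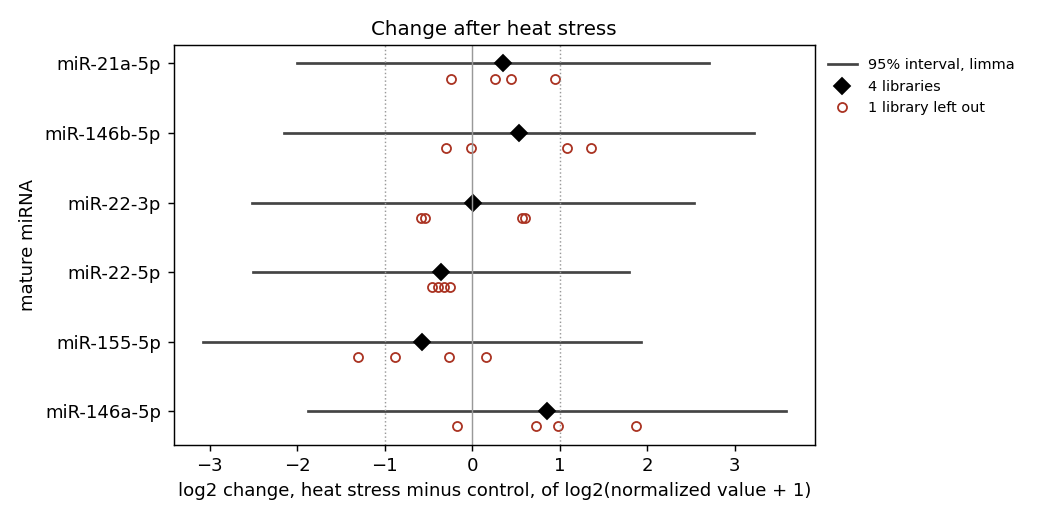
Log2 change of each member, heat stress minus control, on the log2(value + 1) scale, with limma's 95% interval as a line, and open circles for the change with 1 library left out. Every interval spans 0, and for miR-22-5p alone do the open circles all lie on the same side of 0, which must be so because its groups did not overlap.

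In the order of mean values, miR-21a-5p was followed by miR-146b-5p, miR-22-3p, miR-22-5p, miR-155-5p and miR-146a-5p, with means over the 4 libraries of 406, 89.7, 41.8, 12.8, 9.94 and 2.13. These are levels of reads, and ligation and PCR treat miRNA sequences unequally, so the order of reads need not be the order of molecules. MiR-21a-5p exceeded miR-146b-5p in 4 of 4 libraries, by a mean difference in log2(value + 1) of 2.28 ± 0.435 (SD, n = 4), and miR-22-3p exceeded miR-22-5p in 4 of 4, by 1.53 ± 0.620 (SD, n = 4). The order of miR-146b-5p above miR-22-3p held in 3 of 4 libraries, with a mean log2 difference of 1.02 ± 1.495 (SD, n = 4), and was the opposite in control library 1, so these neighbours did not differ beyond their spread. The same was true of miR-22-5p and miR-155-5p, at 0.47 ± 0.602 (SD, n = 4) on the log2(value + 1) scale and also opposite in control library 1. MiR-155-5p lay above miR-146a-5p in 4 of 4 libraries. The difference in log2(value + 1) was 0.81 in control library 2, 0.95 in heat stress library 1 and 1.32 in heat stress library 2, and in control library 1, where miR-146a-5p had 0 reads, miR-155-5p at 19.0 was above the limit of 4.06.

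The 6 members together took 0.5999% and 0.920% of the summed value of control libraries 1 and 2 and 0.813% and 0.884% of heat stress libraries 1 and 2. Control library 1 was the low one, control library 2 the high one, and the groups overlapped. The mean share was 0.760% ± 0.226 (SD, n = 2) in the control group, against 0.849% ± 0.05002 (SD, n = 2) in the heat stress group, a difference of 0.0889 percentage points that was smaller than the spread between the control libraries. It was -0.0710 points without control library 1, 0.249 without control library 2, 0.124 without heat stress library 1 and 0.0536 without heat stress library 2. With the 5 most abundant other miRNAs left out of the sum it was 0.175 points. MiR-21a-5p made up 64.1% and 75.6% of the members' sum in the control libraries, against 71.7% and 73.6% in the heat stress libraries, so the summed share mostly followed it.

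Other miRNAs tied to inflammation were taken from a list of 20, of which 16 were listed in the table and 14 were tested. In limma's test 0 of the 14 were called higher and 1 was called lower, which is 7.14%, near the 7.35% of all miRNAs tested, with a median log2 change of 0.23, 10 positive and 4 negative. The 1 called lower was miR-31-5p, at 17.6 and 25.03 in the control libraries, against 0 and 5.01 in the heat stress libraries. Both heat stress libraries lay below both control libraries, and the 0 in heat stress library 1 allows a value of up to 2.37. Its log2 change was -3.17 with a standard error of 1.18 (limma, unadjusted p = 0.0439, adjusted p = 0.612 with Benjamini-Hochberg), so it failed the correction. The call was lost with 0.1 added in place of 1, when the variance prior followed the mean and with replicate number as a block. It was also lost in edgeR, where the adjusted p of miR-31-5p was 0.968. The log2 change was -4.88, -3.17, -3.17 and -3.06 in that order. The variance prior and the block cannot move it, and its size depends on the constant added because heat stress library 1 was at 0. In limma the call was also lost without control library 1, control library 2 or heat stress library 1. The log2 changes of miR-31-5p were then -3.41, -2.925 and -1.87. Over the alternatives that kept it, which leaves out the filter of 10 reads in every library, its adjusted p lay between 0.148 and 0.968.

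The groups did not overlap for 5 of the 14, miR-31-5p among them, beside 27.5% of all miRNAs tested. Among the others of that list, miR-125b-5p, described as a repressor of Tnf, was the most abundant, at 2134 and 1612 in the control libraries, against 2402 and 3254 in the heat stress libraries. Its heat stress values lay above both control values, with a log2 change of 0.59 and a standard error of 0.851. MiR-125a-5p was at 971 and 747 in the control libraries, against 1072 and 1017 in the heat stress libraries, where again the groups did not overlap, with a log2 change of 0.29 and a standard error of 0.838. MiR-221-3p was at 40.6 and 45.4 in the control libraries, against 48.2 and 68.1 in the heat stress libraries, also without overlap, and its log2 change was 0.41 with a standard error of 0.845. These 3 changes were smaller than their standard errors. In miR-222-3p, which shares a cluster with miR-221, the control libraries at 310 and 90.8 enclosed the heat stress libraries at 213 and 165. MiR-27b-3p was at 104 and 151 against 157 and 110.1, and miR-199a-3p at 102 and 246 against 301 and 192, with overlap in both. MiR-98-5p, a let-7 family member, was at 6.77 and 21.9 in the control libraries, against 54.5 and 22.02 in the heat stress libraries. There 1 heat stress library stood far above the rest and the groups only just did not overlap. Its log2 change of 1.42 was larger than its standard error of 1.05, but limma did not call it. MiR-181a-5p was at 5.42 and 3.13 against 14.2 and 4.00, and miR-23b-3p at 13.6 and 16.4 against 14.2 and 7.01. Both rested on few reads, and their groups overlapped. MiR-9-5p, abundant in neural tissue, was at 122 and 0 in the control libraries, against 138 and 48.0 in the heat stress libraries, so its control libraries were far apart. In limma's test with all libraries it was not called, with a log2 change of 2.89 and a standard error of 2.41. It was called when the variance prior followed the mean and when control library 1 was left out, and in no other alternative that kept it.

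Some of the markers of neurons, of microglia or blood cells, of muscle and of liver were above 0 in every library, and others were not listed or at 0 in a library. For neurons, 4 of 5 markers were listed and 2 were above 0 in every library, with sums of 589 and 541 in the control libraries, against 486 and 415 in the heat stress libraries. Most of this was miR-128-3p, while the neuron-defining miR-124-3p was at 4.06 and 0 in the control libraries, against 0 and 3.00 in the heat stress libraries. For microglia and blood cells, taken as 1 list, 6 of 8 markers were listed and 4 were above 0 in every library. The sums were 975.4 and 591 in the control libraries, against 819 and 593 in the heat stress libraries. Most of this was miR-486a-5p, whose values are identical to those of miR-486b-5p. These values were counted once in the sums, but both names are among the markers counted as listed and above 0. The myeloid miR-223-3p was at 0 in 3 libraries and at 0.790 in heat stress library 1. For endothelium 2 of 2 markers were listed, with sums of 2.71 and 0 in the control libraries, against 33.2 and 8.01 in the heat stress libraries, nearly all of it miR-126a-3p. For muscle 2 of 3 were listed, with sums of 39.3 and 108 in the control libraries, against 22.1 and 27.0 in the heat stress libraries, and miR-1a-3p was the most abundant by its mean over the 4 libraries. MiR-206-3p, at 14.9 and 34.4 in the control libraries, against 19.0 and 27.0 in the heat stress libraries, made up most of the sums of the heat stress group. Of the 12 markers of other cells that were tested, in which miR-486a-5p and miR-486b-5p stand for the same values, limma called 1 higher and 1 lower, which is 16.7% beside 7.35% of all miRNAs tested. The groups did not overlap for 3 of the 12, beside 27.5% of all. MiR-1a-3p, a muscle miRNA, was called lower, at 24.4 and 73.5 in the control libraries, against 3.16 and 0 in the heat stress libraries (log2 change -4.41, standard error 1.17, adjusted p = 0.513 in limma). MiR-126a-3p, an endothelial miRNA, was called higher, at 2.71 and 0 in the control libraries, against 32.4 and 8.01 in the heat stress libraries (log2 change 3.17, standard error 1.19, adjusted p = 0.612 in limma). Neither passed the correction, and each has a library at 0, so the size of the change depends on the constant added. Both calls were lost with 0.1 added in place of 1 and with any library left out, and that of miR-126a-3p also with library totals, when the variance prior followed the mean, and in edgeR. Where the calls were lost, the log2 change kept its sign, from -6.22 to -3.39 for miR-1a-3p and from 2.23 to 4.94 for miR-126a-3p. With a library left out this sign could not change, because the groups did not overlap for either. Over the alternatives that kept them, again without the filter of 10 reads, the adjusted p lay between 0.177 and 0.735 for miR-1a-3p and between 0.477 and 0.968 for miR-126a-3p. Serum in the medium can carry such miRNAs as well as cells can, and the part of other sources in the values of the members was not tested.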

How the data were processed

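Small RNA libraries of 2 control and 2 heat stress preparations were sequenced by the authors, who removed adapters, low-quality reads and reads under 17 nt. Their methods name Bowtie for the comparison with the genome, while the submitters' processing notes list FastQC and BWA, and the genome build and miRNA release are not given in the sources used here. The deposited values are a normalized signal, reads divided by a size factor per library. Whole multiples of 1 step made up 100% of the values of every library, within a tolerance of 0.02, although an automatic step test gave an answer only for control library 1 and heat stress library 1. The inverse steps were 0.738, 1.28, 1.27 and 0.999, equal to median-of-ratios size factors of the multiples. The authors' columns of log2 fold change and p, and their table of selected miRNAs, were not used.

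Limma (version 3.58.1, R version 4.3.3) was run on log2(value + 1) for miRNAs whose mean value was 1 or more. Its single term was the group, and p was adjusted by Benjamini-Hochberg. This scale tends to understate changes of low values. The threshold, a change above 2-fold whose unadjusted p was under 0.05, followed the study's methods. Members and lists were chosen with earlier results of these data known. Named miRNAs came from the members, miRNAs sharing a member's seed, and listed miRNAs above 0 in every library. They also came from the 3 nearest profiles and the level neighbours of members with a mean value of at least 10. Level neighbours are named for miR-21a-5p only, and the values of some markers above 0 in every library are given only in their sums. Other miRNAs named, among them miR-31-5p, miR-9-5p, miR-139-3p and the markers at 0 in a library, fall outside this rule, and their values were known when they were chosen. Alternatives were another pseudocount, other filters, library totals, a mean-dependent variance prior, a replicate block, each library left out and, added after seeing the data, edgeR (version 4.0.16) on the multiples. The labels do not say which steps the replicates shared, so p-values measure the spread between these libraries. Scripts were tested on simulated data with changes of 8-fold, where limma at this threshold also called 7.44% of the unchanged miRNAs. Hairpin positions came from GENCODE M21 on GRCm38, and figures were drawn with matplotlib (version 3.10.9).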

Additional observations from a re-analysis of the deposited data

How the results depend on the processing

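Among the alternatives with all 4 libraries, the filters, the variance prior and the replicate block cannot move a member's log2 change or its direction. Only another pseudocount, library totals and edgeR could do that. With all 4 libraries, 39 of 40 comparisons of a member's log2 change with an alternative kept their direction and their side of the threshold, and the other was miR-22-3p, at -0.0856 with library totals. With 1 library left out, where the lone library of a group is assumed to vary like the others, 16 of 24 did so, 7 changed sign and 1 passed the threshold. The log2 changes then ran from -0.24 to 0.94 for miR-21a-5p, -0.29 to 1.36 for miR-146b-5p, -0.17 to 1.88 for miR-146a-5p, -1.30 to 0.16 for miR-155-5p and -0.58 to 0.61 for miR-22-3p, and the number of members called from 0 to 1. Over all miRNAs, leaving out a library gave 10 to 39 called higher, 3 to 27 called lower and 0 to 35 with an adjusted limma p under 0.05. A filter of 10 reads or more in every library left 104 miRNAs, of which 2 were called higher and 5 lower, and removed miR-155-5p and miR-146a-5p. The numbers called were 14 higher and 2 lower with 0.1 added in place of 1, and 6 higher and 10 lower both when the variance prior followed the mean and in edgeR. With the replicate number as a block they were 10 higher and 4 lower. Same-numbered libraries share only a number, and their deviations from the group means had a correlation of -0.02 (r = -0.0189) across 313 miRNAs, which are not independent replicates. Any group difference in the log2 ratio of miR-146a-5p to miR-146b-5p that includes the 0 of control library 1 is set by the constant added and is no measurement, at 0.32 with 1 added and 1.74 with 0.1. Without that library it was 0.13. The cause of the other shifts was not tested. Depth limits miR-146a-5p most, with at most 4 reads in a library.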
